A study of Mus musculus with 2 samples.

Results

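The miR-30 family was followed in adrenal gland, the endocrine organ beside the kidney with a steroid-making cortex around a medulla that secretes catecholamines. Its 6 genes, Mir30a, Mir30b, Mir30c-1, Mir30c-2, Mir30d and Mir30e, were taken by symbol from the 2202 microRNA genes of the deposited tables, and all 6 were found in both. MicroRNA-seq, which reads short RNAs, was run on total RNA of wild type C57BL/6J tissue from The Jackson Laboratory. There was 1 group of 2 libraries, numbered in the labels as biological replicates 1 and 2, so no contrast of conditions exists. One label says female and another that sex was not collected, and age is given as unknown. The libraries have separate tissue samples but share a donor identifier, and nothing says outright that the tissue came from separate animals. Any p-value below therefore measures only how these libraries differ, which may be technical.

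MicroRNAs are short RNAs cut from the arms of a hairpin, and they repress messenger RNAs that pair with the seed, bases 2 to 8 from the 5′ end. The miR-30 genes make a 5p product with the same seed from the first arm and a 3p product from the second. The family is known for high levels in differentiated tissue, the kidney among them, and for roles in keeping epithelial cells differentiated. In the mouse its genes lie as pairs at 3 loci, and neighbouring microRNA genes are often cut from the same primary transcript.

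The RefSeq microRNA table (GRCm38.p6) held 4 of the 6 genes. It had no entry for Mir30b and Mir30d. The 5p products are shown because their shared seed, in capitals, defines the family, and because the miR-30c product is the same at both of its genes.
miR-30a-5p: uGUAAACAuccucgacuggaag
miR-30e-5p: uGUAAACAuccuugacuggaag
miR-30c-5p: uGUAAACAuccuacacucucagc
Counted from the 5′ end, miR-30e-5p differed from miR-30a-5p by C13U alone, outside the seed. Over the 22 positions that could be compared, miR-30c-5p differed from miR-30a-5p at 5.

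The 3p products of these 4 genes fell into 2 seed groups, also in capitals, which cut across the loci.
miR-30a-3p: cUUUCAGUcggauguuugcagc
miR-30e-3p: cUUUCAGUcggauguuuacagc
miR-30c-1-3p: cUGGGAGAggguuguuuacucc
miR-30c-2-3p: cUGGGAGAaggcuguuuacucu
Mir30a and Mir30e, on different chromosomes, had 3p products that differed by G18A. The miR-30c 3p products shared the other seed and differed by G9A, U12C and C22U.

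The miR-30c hairpins are printed because they bear on every miR-30c value here. In capitals is the run of 28 bases that they have in common, and it contains the whole 5p product.
Mir30c-1: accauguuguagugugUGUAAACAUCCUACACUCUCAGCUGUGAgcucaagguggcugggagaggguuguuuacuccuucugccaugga
Mir30c-2: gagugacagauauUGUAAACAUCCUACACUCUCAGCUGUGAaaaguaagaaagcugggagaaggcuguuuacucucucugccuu
Among the 1005 hairpins of the table, miR-30c-5p matched exactly in 2, Mir30c-1 and Mir30c-2. The other 6 mature products of the 4 genes each matched in 1. The hairpins of Mir30a and Mir30e had a run of 18 bases in common. Mir30b and Mir30d could not be checked in this way. The deposited tables keep reads with several alignments in a row of their own, outside the gene counts, and that row held 35.9% and 36.0% of the reads of replicates 1 and 2. A read of miR-30c-5p alone fits both genes equally well, and would fall in that row and outside both gene counts. The counts of Mir30c-1 and Mir30c-2 are therefore uncertain and may be too low. How many reads of miR-30c-5p there were was not tested.

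The loci, in mm10 coordinates with the GENCODE M21 annotation, differ in what surrounds them. On chromosome 1, Mir30a (23272269-23272339, plus strand) overlaps no other annotated gene, and Mir30c-2 (23291701-23291784) lies in an exon of the long noncoding RNA Gm27028, with 19361 bases between the hairpins. On chromosome 4, Mir30e (120772606-120772697, minus strand) and Mir30c-1 (120769534-120769622) lie in introns of Nfyc, which encodes a subunit of the transcription factor NF-Y, 2983 bases apart. On chromosome 15, Mir30d (68341208-68341289, minus strand) overlaps exons of Gm20732 and Gm37296, and Mir30b (68337415-68337510) overlaps an exon of Gm26621, 3697 bases apart. Mir30a, Mir30e and Mir30d are the upstream hairpins in the direction of transcription.

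The libraries held 18743064 and 14457994 reads, of which 9137907 and 6570375 fell on the sense strand of an annotated microRNA. Levels are given as counts per 1000000 of these totals (CPM). At a count of 0, levels of up to 0.328 and 0.457 CPM remain possible, counting error only. Of the microRNA lists for other cells, neuroendocrine and medulla genes summed to 54062 and 51805 CPM in replicates 1 and 2. Most of this was Mir375, with 50274 and 48617 CPM. In that list 4 of 10 genes were detected at 10 counts or more in both. All its Mir9 and Mir124a genes were at 0, though these have near-identical copies. Kidney genes summed to 112 and 118 CPM, with 3 of 5 detected and none at 0 in both. No microRNA that defines the adrenal cortex was among the lists.

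By the counts assigned to genes, each locus had 1 abundant gene and 1 scarce gene, and the abundant gene was the upstream one. Mir30d had 4015 CPM in replicate 1 and 11082 CPM in replicate 2. Mir30a had 4847 and 6343 CPM, and Mir30e had 6391 and 3264 CPM. These 3 genes held 96.4% and 97.2% of the family's counts. Mir30c-2 had 262 and 253 CPM, Mir30c-1 had 175 and 180 CPM, and Mir30b had 126 and 152 CPM. Every abundant gene lay above every scarce gene in both libraries. The miR-30c counts leave out reads with several alignments, so the miR-30c genes may be less scarce than shown. The share of the 3 abundant genes may then be lower.

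The order of the abundant genes turned over between the libraries. In replicate 1 Mir30e led, ahead of Mir30a and Mir30d. In replicate 2 Mir30d led, ahead of Mir30a and Mir30e. Their means were 7548 ± 4997 CPM for Mir30d (SD, n = 2), 5595 ± 1058 CPM for Mir30a and 4828 ± 2211 CPM for Mir30e, so that neighbours in this order differed by less than the larger of their SDs. The scarce genes kept 1 order in both libraries, with no overlap of their ranges. Mir30c-2 was at 257 ± 6.15 CPM, Mir30c-1 at 177 ± 4.0 CPM and Mir30b at 139 ± 18.8 CPM. The places of the miR-30c genes in this order are as uncertain as their counts.

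Hairpin lengths run from 71 bases in Mir30a to 96 bases in Mir30b. Divided by hairpin length and rescaled to sum to 1000000 over all genes, the mean levels were 7478 ± 4968 for Mir30d (SD, n = 2), 6397 ± 1229 for Mir30a, 4256 ± 1938 for Mir30e, 249 ± 5.18 for Mir30c-2, 162 ± 4.14 for Mir30c-1 and 117 ± 16.2 for Mir30b. The order is that of the CPM means. On this scale too, Mir30e led replicate 1 with 5626 and Mir30a followed closely with 5528, and Mir30d led replicate 2 with 10991.

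**Figure D1:**
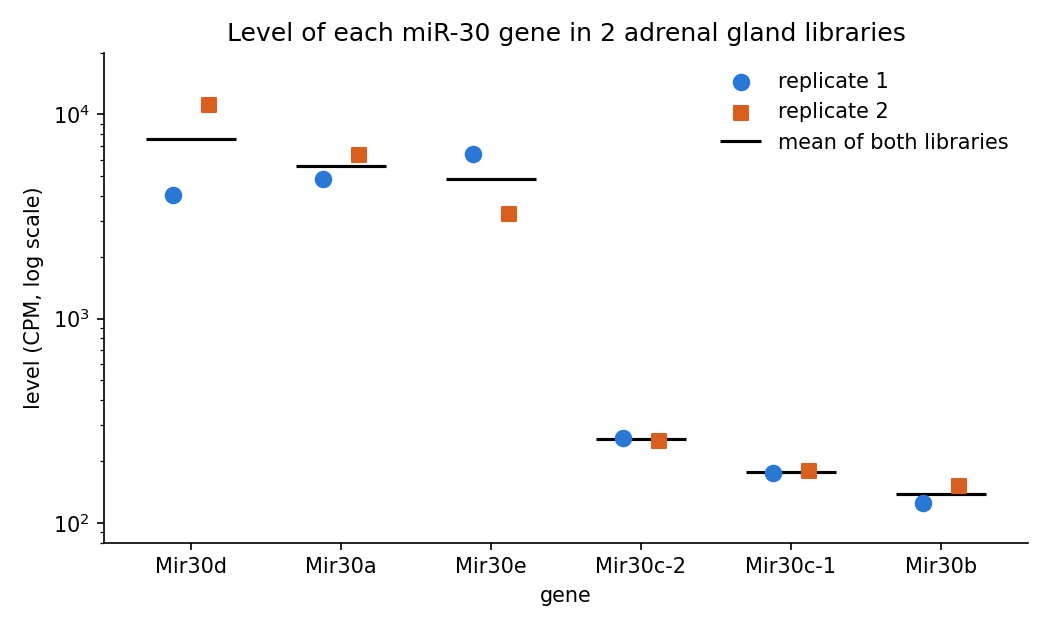
Level of each miR-30 gene in CPM on a log axis, with replicate 1 as circles, replicate 2 as squares and the mean as a bar. Mir30d, Mir30a and Mir30e lie between 3264 and 11082 CPM, and the other genes between 126 and 262 CPM.

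The make-up of the family shifted between the libraries, mostly at 2 of its 3 loci. Mir30d made up 25.4% of miR-30 counts in replicate 1 (exact Clopper-Pearson 95% interval 25.2 to 25.6) and 52.1% in replicate 2 (51.8 to 52.4). Mir30e made up 40.4% (40.2 to 40.7) and 15.3% (15.2 to 15.5). Mir30a made up 30.6% (30.4 to 30.9) and 29.8% (29.6 to 30.1). By locus, the chromosome 1 pair held 32.3% and 31.0% of the family's counts, the chromosome 15 pair 26.2% and 52.8%, and the chromosome 4 pair 41.5% and 16.2%. Intervals here cover counting error within a library only. No molecular identifiers are stated, so repeated reads of 1 molecule may be counted and the intervals may be too narrow. The summed level of the family was 15815 and 21274 CPM.

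**Figure D2:**
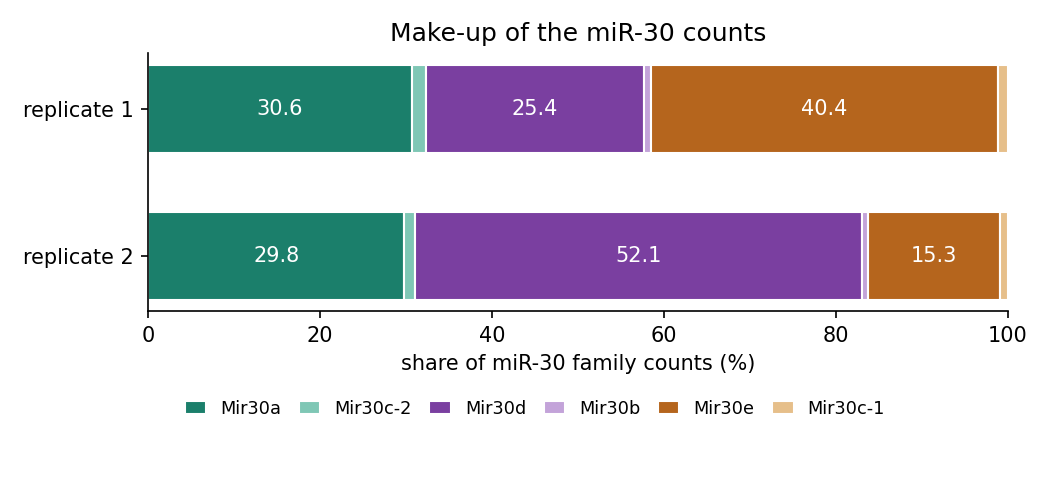
Share of all miR-30 counts held by each gene, in percent, with 1 bar per library and dark and light shades for the genes of 1 locus. Mir30d widens from 25.4% to 52.1% and Mir30e narrows from 40.4% to 15.3%, while Mir30a stays near 30%.

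Between the libraries, Mir30d and Mir30e moved in opposite directions. Each gene's counts were compared with an exact two-sided binomial test against the ratio of library sizes scaled by edgeR's TMM, over all 426 microRNA genes with at least 20 counts, with Benjamini-Hochberg adjustment. Differences are log2 ratios of replicate 2 over replicate 1 with 95% counting intervals. Mir30d was 2.57-fold higher in replicate 2, a log2 ratio of 1.36 (1.34 to 1.38). Mir30e was 2.10-fold higher in replicate 1, a log2 ratio of -1.07 (-1.10 to -1.05). For both, the adjusted p was too small to be written in double precision.

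The other genes differed less. Mir30a was 1.22-fold higher in replicate 2, with a log2 ratio of 0.29 (0.27 to 0.30) and an adjusted p of 7.12e-183 in the exact binomial test. Mir30b also passed, with a log2 ratio of 0.17 (0.05 to 0.30) and an adjusted p of 0.0116 in that exact test. Mir30c-2 passed in the other direction, at -0.15 (-0.24 to -0.06) with an adjusted p of 0.00232 in the exact test. Scaled by total counts its log2 ratio was -0.05 and the call was lost, at an adjusted p of 0.404. Mir30c-1 had a log2 ratio of -0.06 (-0.17 to 0.05) and did not pass, at an adjusted p of 0.412 in the exact test, and by total counts it turned to 0.05.

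In all, 3 of the 6 genes were called higher in replicate 2, 2 higher in replicate 1 and 1 did not pass. Over all tested genes 56.1% were called, with 25.8% higher in replicate 2 and 30.3% in replicate 1. With library totals in place of TMM, 3 and 1 of the miR-30 genes were called in those directions, against 150 and 93 of all genes. The TMM scaling moves every log2 ratio by -0.10 from the total-count value. The median log2 ratio of the family was 0.059 and its median size, regardless of sign, was 0.23, beside -0.025 and 0.29 for all tested genes. In the let-7 family, 1 of 12 genes was called higher in replicate 2 and 9 higher in replicate 1, with a median of -0.14 and a median size of 0.14.

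Mir30d and Mir30e were called at over 2-fold, as were 10.8% of all tested genes. A log2 ratio at least as large as that of Mir30d, in either direction, was found in 28 of the 426 tested genes, itself included, and in 3 of the 54 genes with a mean of 1000 to 10000 CPM. For Mir30e the numbers were 46 and 6, for Mir30a 221 and 24.

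MicroRNAs of other cell types were also called between the libraries, as were 56.1% of all tested genes. The erythroid list summed to 144 and 295 CPM in replicates 1 and 2, with 3 of its 4 genes detected in both and Mir451b at 0, and 2 were called higher in replicate 2. The endothelial list, Mir126a and Mir126b, summed to 61679 and 54325 CPM, with 1 of 2 genes detected in both. Nearly all of it was Mir126a, at 61677 and 54325 CPM. Both genes were called higher in replicate 1. The fibroblast and smooth muscle list summed to 18914 and 15035 CPM, with 5 of 7 genes detected and none at 0 in both. Of its 5 tested genes 2 were called higher in replicate 1, among them Mir214 with a log2 ratio of -1.04. The 1 called higher in replicate 2 was Mir145a, at 0.17. The liver microRNA Mir122 had 128 and 71.5 CPM and was called higher in replicate 1. In the kidney list, 1 of 3 tested genes was called in each direction, Mir204 at 0.29 and Mir192 at -0.29. Of 6 tested leukocyte genes, 3 were called in each direction, with sums of 3237 and 3559 CPM. Of 4 tested neuroendocrine and medulla genes, 3 were called higher in replicate 1 and 0 in replicate 2, with Mir375 at -0.15. Of 6 tested epithelial genes, 2 were called higher in replicate 1 and 1 in replicate 2, with sums of 728 and 741 CPM. The 1 tested striated muscle gene was not called. The part of these lists in the differences of Mir30d and Mir30e was not tested. Fewer cells of a type and less RNA per cell cannot be told apart in whole tissue.

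**Figure D3:**
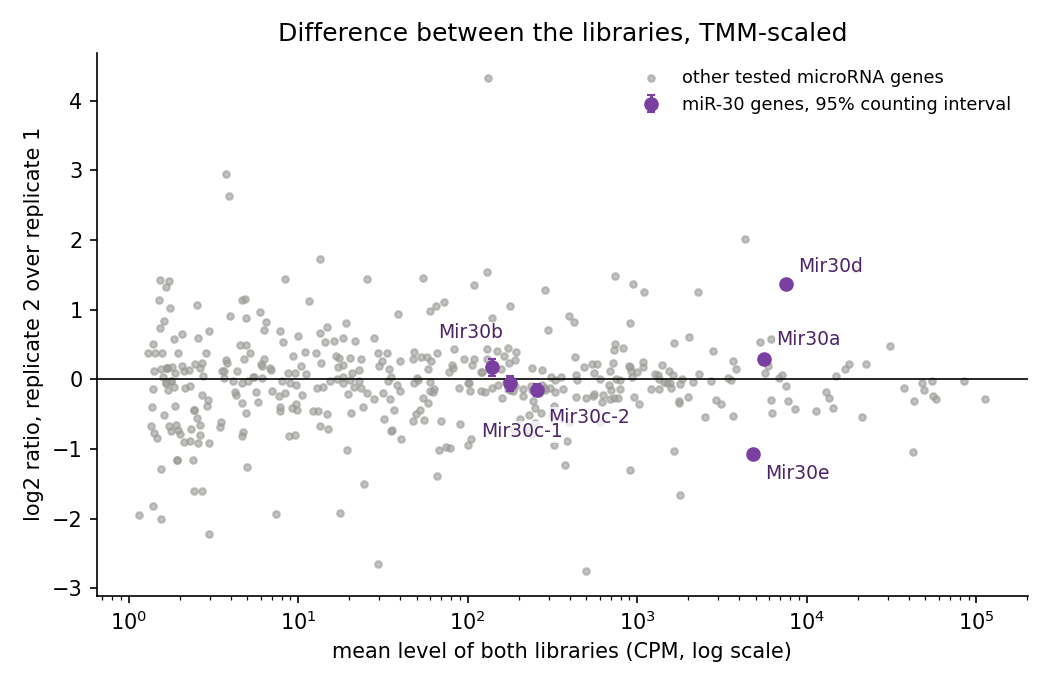
Log2 ratio of replicate 2 over replicate 1, TMM-scaled, against mean level in CPM on a log axis, with the 426 tested genes as points and miR-30 genes in purple with 95% counting intervals. Mir30d lies at 1.36 and Mir30e at -1.07, while the other miR-30 genes lie between -0.15 and 0.29.

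Neighbours at a locus were compared within each library, and their levels were far apart at all 3 loci. On chromosome 1, Mir30a had 44289 counts and Mir30c-2 2391 in replicate 1, an 18.5-fold difference, and 41675 and 1662 in replicate 2, a 25.1-fold difference. On chromosome 15, Mir30d had 36689 counts and Mir30b 1148 in replicate 1, a 31.9-fold difference, and 72810 and 1000 in replicate 2, a 72.8-fold difference. On chromosome 4, Mir30e had 58404 counts and Mir30c-1 1595 in replicate 1, a 36.6-fold difference, and 21445 and 1184 in replicate 2, an 18.1-fold difference. At each of these 3 loci the upstream hairpin had the more counts, in both libraries.

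As a log2 ratio of counts, the upstream gene exceeded its neighbour by 4.43 ± 0.31 on chromosome 1 (SD, n = 2), 5.59 ± 0.84 on chromosome 15 and 4.69 ± 0.72 on chromosome 4. Per base of hairpin the log2 ratios were 4.67, 5.82 and 4.64. The chromosome 1 and 4 ratios set a gene against a miR-30c gene, whose counts are uncertain and may be too low, as described with the hairpins. These ratios may thus be too high, and they are not ratios of all miR-30 product made at those loci. The genes of the chromosome 15 pair could not be checked for shared sequence.

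Among other microRNA genes, 126 pairs of neighbours on the same strand, starting within 50 kb of each other and each with at least 20 counts, had a median difference of 2.38 on the log2 scale regardless of sign. These pairs draw on 179 genes, many of them in more than 1 pair. Genes with a numbered copy elsewhere, such as Mir24-1 and Mir29b-1, were kept among them. Such genes may also lack reads with several alignments, which can widen a pair's difference, and this was not tested. A difference at least as large as that of the chromosome 15 pair was found in 13 of the 126, as that of the chromosome 4 pair in 23, and as that of the chromosome 1 pair in 26. Among the 126 pairs, either gene could be the higher one. The mean log2 ratio of upstream over downstream was 2.51 for Mir191 and Mir425, and -5.34 for Mir34b and Mir34c.

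The ratio within a pair does not depend on how the libraries are scaled. Mir30d over Mir30b was 2.28-fold higher in replicate 2, a change of 1.19 on the log2 scale (exact conditional 95% interval 1.06 to 1.31). Mir30e over Mir30c-1 was 2.02-fold higher in replicate 1, a change of -1.02 (-1.13 to -0.90). Mir30a over Mir30c-2 was 1.35-fold higher in replicate 2, a change of 0.44 (0.34 to 0.53). How such a change divides between the genes of a pair does depend on the scaling. With TMM the log2 ratios between the libraries were 1.36 for Mir30d and 0.17 for Mir30b, and by total counts 1.46 and 0.28. For Mir30e and Mir30c-1 they were -1.07 and -0.06 with TMM, and -0.97 and 0.05 by total counts.

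**Figure D4:**
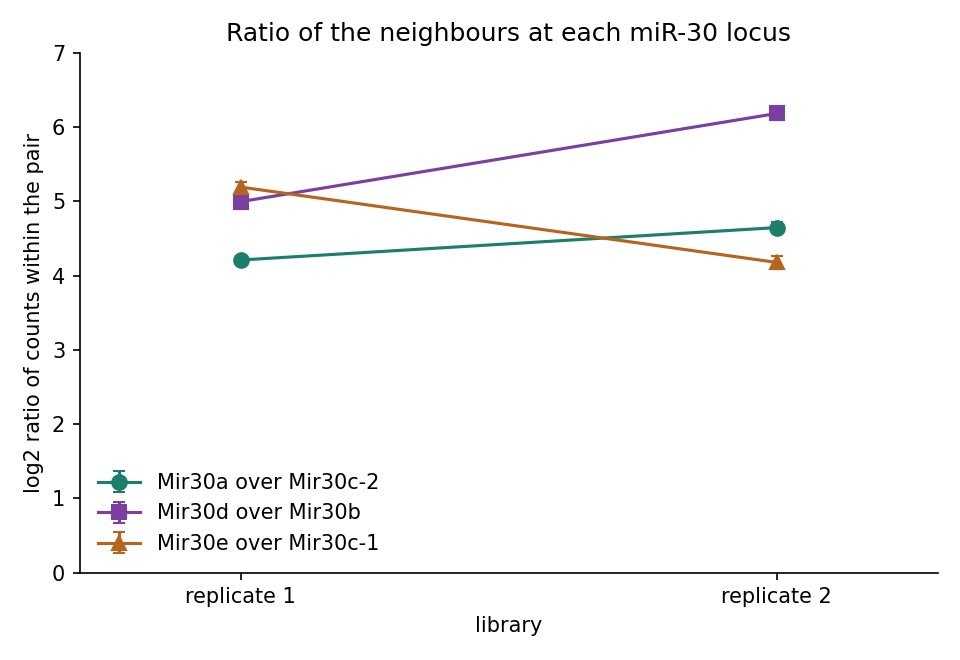
Log2 ratio of the upstream over the downstream gene at each locus in each library, with exact 95% counting intervals. The ratio of Mir30d over Mir30b climbs from 5.00 to 6.19, that of Mir30e over Mir30c-1 drops from 5.19 to 4.18, and that of Mir30a over Mir30c-2 goes from 4.21 to 4.65.

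Over the 126 other pairs of neighbours, the median change of the ratio between the libraries was 0.44 regardless of sign. A change at least as large as that of the chromosome 15 pair was found in 15 of them, as that of the chromosome 4 pair in 25, and as that of the chromosome 1 pair in 63. The chromosome 1 pair thus lay in the middle of these pairs, and the other pairs of miR-30 genes in their outer parts.

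**Figure D5:**
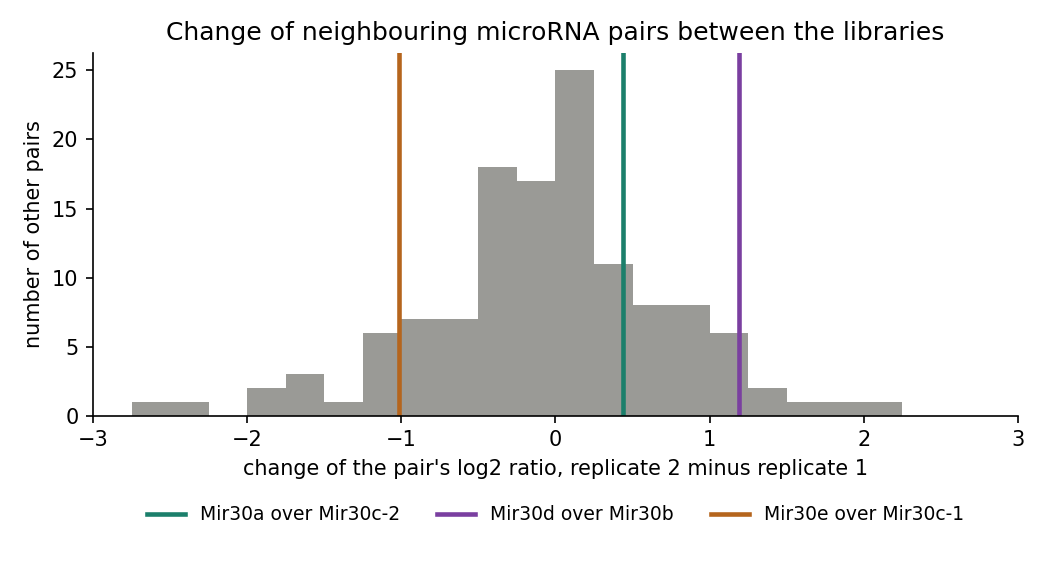
Change of the log2 ratio between neighbours, replicate 2 minus replicate 1, as a histogram of 126 other pairs of microRNA genes, with lines for the miR-30 pairs. The lines stand at 0.44 for chromosome 1, 1.19 for chromosome 15 and -1.02 for chromosome 4.

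Few other genes carry a seed of the 4 miR-30 genes in the RefSeq table. Seeds of Mir30b and Mir30d products could not be looked up. Mir384, an X-linked microRNA gene (105344282-105344369, minus strand), has the 5p seed, in capitals, on an otherwise different product.
miR-384-5p: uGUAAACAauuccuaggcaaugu
Mir384 had 109 and 48 counts in replicates 1 and 2, or 11.9 and 7.31 CPM, below every miR-30 gene in both libraries. It was called higher in replicate 1, with a log2 ratio of -0.80 (-1.33 to -0.31) and an adjusted p of 0.00221 in the exact binomial test. The 3p seed of the miR-30c genes also occurs in miR-6958-5p, whose gene Mir6958 had 4 and 5 counts and was not tested. Mir30f, which bears the family name, lies on the strand opposite to Mir30e over the same bases and had no count on its own strand. Its product is set off by 1 base, so that its seed is another.
miR-30f: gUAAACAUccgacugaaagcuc

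The genes outside the family whose levels lay nearest to each member, by distance in log2 CPM over the 2 libraries, are given as a description. Mir30b was nearest to Mir669o, at a distance of 0.046, Mir30c-2 to Mir188 at 0.064 and Mir30c-1 to Mir300 at 0.071. Mir30a was nearest to Mir27b at 0.14, which had 5326 and 6560 CPM. Mir30e and Mir30d had no gene as close. The nearest to Mir30e was Mir130a at 0.61, with 4194 and 3112 CPM, and the nearest to Mir30d was Mir379 at 0.60, with 4731 and 7567 CPM.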

How the data were processed

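MicroRNA-seq was run on 2 libraries of adrenal gland tissue. The deposited tables hold raw counts per microRNA gene, made by the authors on mm10 with the GENCODE M21 annotation per the file headers deposited beside the tables. Adapters were trimmed, per the labels' protocols. Which aligner and counting tool were used is not given in the sources used here. Their 3 columns were read, from the values, as counts irrespective of strand, sense counts and antisense counts. Rows that name no gene (unmapped, several alignments, outside genes, ambiguous) made up 51.2% and 54.6% of the reads of replicates 1 and 2, and were left out of totals and tests.

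Sense counts were turned into CPM. A count is for a whole hairpin, so its arms are not told apart. With 1 group of 2 libraries there are no residual degrees of freedom, so the libraries were compared with an exact binomial test (SciPy 1.17.1) using TMM factors from edgeR 4.0.16 in R 4.3.3. Calls were made at an adjusted p under 0.05. Log2 ratios have 0.5 counts added. The test was tried on counts simulated with Poisson error only, where 4 of 229 unchanged genes were called. That simulation holds no further spread between libraries, so it cannot show how the test behaves under such spread. Alternatives changed the scaling, the filter on low counts, the strand, the total, the added count and the length scaling.

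Named are all miR-30 genes, genes that share a seed, Mir30f, and the gene nearest in level to each miR-30 gene of at least 100 CPM. The members and lists were chosen with earlier results of these data known.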

Additional observations from a re-analysis of the deposited data

Results flagged for a closer look

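Counts in the opposite-strand column, which the comparisons do not use, were above the limit of 3 counts at Mir30f. It had 58404 counts there in replicate 1 and 21445 in replicate 2. These are the same numbers as the counts of Mir30e on its own strand, and the genes occupy the same bases of chromosome 4 (120772606-120772697) on opposite strands. The column thus repeats the reads of Mir30e at this locus. The 6 miR-30 genes themselves had 0 opposite-strand counts in both libraries.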

How the results depend on the processing

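Taking all reads of a library as the total gave a family level of 8689 CPM in place of 18544. In the counts on either strand Mir30e had 0 counts, as did Mir30f over the same bases. In that column the row of ambiguous reads held 875601 and 570517 counts, and in the stranded columns 0. The 0 turned the log2 ratio of Mir30e over Mir30c-1 to -11.4 and left 1 miR-30 gene called higher in replicate 1. Scaling by total counts also left 1 such gene, Mir30e, since the call of Mir30c-2 was lost. RLE scaling, no filter and a filter at 200 counts kept 3 miR-30 genes called higher in replicate 2 and 2 higher in replicate 1. Of 109 alternative values, 93 were held to be the same, 12 moved, 3 lost calls and 1 reversed. Levels and pair ratios were held the same within 1 SD, and changes of a pair within the counting interval. Counts over all genes were held the same even where 110 genes called higher in replicate 2 became 150 by total counts. So was Mir30c-1, whose log2 ratio turned from -0.06 to 0.05 by total counts without a call. Not all of the 93 could have come out otherwise. With 2 libraries, the value of 1 library always lies within 1 SD of the mean. The filters on low counts leave each log2 ratio as it is. Leaving out a library gives the values of the other. It leaves no comparison of the libraries, and the change of Mir30e over Mir30c-1 could not be computed on either strand. No paired analysis was possible because there is 1 group. With 2 libraries, depth does not limit the abundant genes, but the spread between tissues cannot be estimated beyond these libraries.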
